A study of Mus musculus with 55 samples.

Results

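The genes described are 9 that write or read histone acetylation: the paralogs Ep300 and Crebbp (the coactivators p300 and CBP), Kat2a and Kat2b (GCN5 and PCAF), the MYST family acetyltransferases Kat5 (TIP60), Kat6a (MOZ) and Kat6b (MORF), and the BET readers Brd2 and Brd3. They were chosen by name. Each had exactly 1 row in both tables of normalized gene counts, 9 of 47606 rows, and all 9 passed the filter on low values in both hosts. RNA was sequenced in bulk from tumours of BBN963, a mouse bladder cancer cell line, so all tumours derive from a single line. In C57BL/6 (B6) mice, which have an intact immune system, 3000000 cells were injected under the skin. Vehicle and entinostat mice were assigned at random once tumours reached 200 mm3, entinostat was mixed into chow at 12 mg/kg, and entinostat tumours were taken at 100 mm3. The sample titles call the vehicle tumours non-treated. The B6 libraries are 4 baseline, 6 vehicle and 5 entinostat tumours; the sixth entinostat tumour of the labels was not analysed here. NSG hosts, a strain without T cells, B cells or NK cells, carried the same line and gave 5 tumours in each of the same groups. The sources used here give no dose or tumour volume for NSG hosts and no collection size for B6 vehicle or baseline tumours, so in B6 mice treatment and tumour size at collection cannot be told apart. Nothing in the labels says how tumours relate beyond their numbers, and p-values measure the spread between tumours.

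Acetyltransferases move an acetyl group from acetyl-CoA to lysines of histones and other proteins, which loosens chromatin and makes docking sites for bromodomains. p300 and CBP are recruited by transcription factors to enhancers, GCN5 and PCAF are alternative catalytic subunits of the SAGA and ATAC complexes, TIP60 works in a complex that also repairs DNA, and MOZ and MORF bind BRPF scaffold proteins. BET proteins hold acetylated chromatin and help RNA polymerase II to elongate. Entinostat inhibits class I histone deacetylases, the enzymes that take the acetyl groups off, and loss-of-function mutations of EP300, CREBBP and other chromatin genes are common in human bladder cancer.

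On the mm10 assembly (GRCm38.p6 in RefSeq) Ep300 (ENSMUSG00000055024) spans chr15:81586209-81652077, Crebbp (ENSMUSG00000022521) chr16:4081334-4213957, Kat2a (ENSMUSG00000020918) chr11:100704746-100712485 and Kat2b (ENSMUSG00000000708) chr17:53566774-53672721. Kat5 (ENSMUSG00000024926) spans chr19:5603014-5611556, Kat6a (ENSMUSG00000031540) chr8:22859442-22943259 and Kat6b (ENSMUSG00000021767) chr14:21499216-21672478. Brd2 (ENSMUSG00000024335) spans chr17:34112019-34122814 and Brd3 (ENSMUSG00000026918) chr2:27445576-27507657.

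Kat2a was lower in entinostat B6 tumours than in both other B6 groups, while its paralog Kat2b passed the test in neither comparison. Their ratio, the direct test of a difference between them, did not pass adjustment in either comparison (exact permutation test, adjusted p = 0.19 in each). The smallest exact permutation p that these group sizes allow was 0.00216 against vehicle and 0.00794 against baseline. Even at those values this ratio alone could not pass adjustment over 24 comparisons, so the adjusted test cannot decide whether the paralogs differ. The sequence just upstream of each gene is shown 5′ to 3′ on the gene's strand, with CpG dinucleotides in capitals. It is the part of the 250-base window before a RefSeq transcript start that lies outside the gene's whole RefSeq span: 232 bases at chr11:100712486-100712717, minus strand, for Kat2a and 53 bases at chr17:53566721-53566773, plus strand, for Kat2b.
Kat2a: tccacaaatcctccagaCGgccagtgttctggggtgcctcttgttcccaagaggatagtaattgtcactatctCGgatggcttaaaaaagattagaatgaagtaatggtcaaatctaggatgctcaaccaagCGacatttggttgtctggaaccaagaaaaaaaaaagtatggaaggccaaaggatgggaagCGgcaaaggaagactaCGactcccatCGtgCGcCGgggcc
Kat2b: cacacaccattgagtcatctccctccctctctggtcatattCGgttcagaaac
The Kat2a stretch held 8 CpGs and the shorter Kat2b stretch 1. Over the whole 250-base windows the counts were 11 for Kat2a and 6 for Kat2b, beside a median of 6 over 32817 windows of that length. Neither window held a GC box (GGGCGG or its reverse complement CCGCCC, the site bound by Sp1 family factors), which 32.7% of all windows held. CCAAT, or its reverse complement ATTGG, was in the Kat2b window and in 33.8% of all windows. That window was the one farther upstream. Another Kat2b window, inside the gene's span, held 5 CpGs, no GC box and no CCAAT. Both Kat5 windows lay inside the gene's span, which includes longer transcripts; the upstream one held 15 CpGs and no GC box, and the other 24 CpGs and 3 GC boxes. Of the 9 genes, 8 had at least 1 window; Kat6a had none. Those of Ep300, Crebbp and Brd3 held 25, 44 and 37 CpGs. The Kat6b window farther upstream held 27 CpGs and 8 GC boxes, and the Brd2 window farthest upstream 27 CpGs. The Crebbp, Brd3 and Kat6b windows lay wholly inside their gene spans, as did 207 bases of that Brd2 window and 5 of the Ep300 window. The series has no measurement of binding or methylation at these windows.

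Libraries held about 11000000 to 52100000 reads, estimated from what 1 read is worth among the low values. The tumour titled NSG_Entinostat_319 stood apart, with the fewest reads, the lowest mean correlation with its group (0.912, against 0.948 to 0.954 for the other 4) and a summed signal of 6 T cell markers of 622.6, against 87.85 to 218.3 in the other NSG tumours. Of those markers Cd3g was at 0 in all NSG baseline and vehicle tumours. The makeup of the B6 tumours differed between groups: 9 epithelial markers summed to 172500 to 605700 normalized counts in vehicle and 1230 to 6499 in entinostat tumours, and all 9 fell. All 8 macrophage, 7 fibroblast and 5 endothelial markers rose, and all 4 markers of dividing cells fell (12060 to 20870 in vehicle and 2395 to 3095 in entinostat tumours). Of 6 T cell markers 5 rose, as did 5 of 6 skeletal muscle markers, whose sum reached 364100 in entinostat tumour 413 beside 136.5 to 11910 in the other 4. In NSG tumours the entinostat and vehicle ranges of these sums overlapped. In bulk RNA, fewer cells that express a gene and less RNA per cell cannot be told apart, and the part of cell makeup in the B6 differences below was not tested.

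Between entinostat and vehicle in B6 mice, 3 of the 9 genes fell and none rose at an adjusted p under 0.05 (limma, log2 of the value plus 1, Benjamini-Hochberg over 17053 genes). Of all genes tested, 56.0% were called and 26.2% were called lower, so the share of the 9 genes that fell was close to that of all genes. The log2 fold change was below 0 in 8 of 9, with a median of -0.47 beside -0.01 for all genes.

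Kat2a, which encodes GCN5, showed the largest difference among the 9. Its normalized counts were 612.6, 661.9, 742.1, 750.7 and 903.7 in the 5 entinostat tumours, and 1117 at the lowest, 1638 at the median and 1867 at the highest of 6 vehicle tumours. Baseline tumours read 1703, 1706, 1738 and 1790. Every entinostat tumour was below every tumour of the other groups, and the baseline tumours lay close together. Kat2a fell 2.10-fold from vehicle (log2 fold change -1.07, SE 0.15, adjusted p = 3.17e-05, limma) and 2.38-fold from baseline (-1.25, SE 0.17, adjusted p = 2.54e-05, limma). Of all genes tested, 16.7% had a lower log2 fold change than Kat2a against vehicle and 15.3% against baseline. The exact two-sided permutation p was 0.00216 against vehicle, the smallest that 5 against 6 tumours can give.

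Kat2b, which encodes PCAF, read 640.0, 950.0, 1003, 1216 and 1476 in entinostat tumours and 619.8 to 1229, median 1002, in vehicle tumours. The groups overlapped throughout (log2 fold change 0.10, 95% interval -0.44 to 0.64). Because both genes are read in the same library, their ratio barely depends on how a library was scaled. The log2 ratio of Kat2a to Kat2b was -1.27, -0.88, -0.43, -0.34 and 0.50 in entinostat tumours, below 0 in 4 of 5, and lay between 0.08 and 1.44 in vehicle and between 0.57 and 1.60 in baseline tumours. Its mean was -0.48 ± 0.66 (SD, n = 5) under entinostat against 0.69 ± 0.54 (SD, n = 6) under vehicle, a difference of -1.17 (exact two-sided permutation p = 0.0108, adjusted p = 0.19 over 24 ratio comparisons), and 1.05 ± 0.52 (SD, n = 4) at baseline (exact permutation p = 0.0159, adjusted p = 0.19). None of the 24 ratio comparisons passed adjustment, which no comparison could do alone even at the smallest p its group sizes allow. For Ep300 to Crebbp, Kat6a to Kat6b and Brd2 to Brd3 the entinostat-minus-vehicle differences in B6 were -0.30, -0.16 and 0.05, all with overlapping groups.

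**Figure D1:**
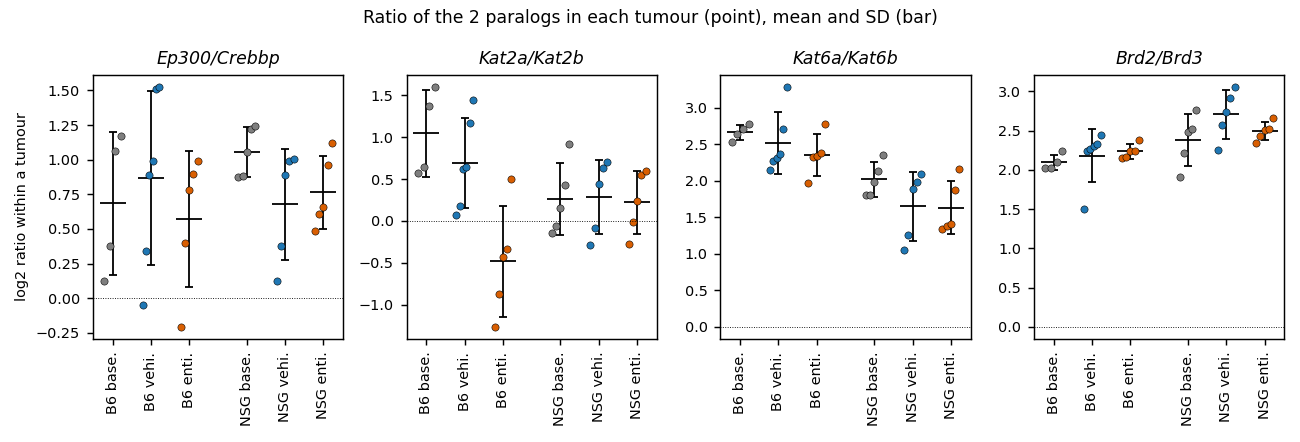
The log2 ratio of each pair of paralogs within a tumour (vertical axis) by host and group (base., baseline; vehi., vehicle; enti., entinostat). Points are tumours, bars the mean and SD; 4 of 5 B6 entinostat tumours have a Kat2a to Kat2b ratio below 0, and no other B6 tumour does.

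Kat5, the catalytic subunit of the TIP60 complex, read 431.4, 484.7, 495.8, 537.2 and 590.3 in entinostat tumours, 381.0 at the lowest, 824.9 at the median and 882.1 at the highest of the vehicle tumours, and 830.4, 901.0, 969.4 and 1196 at baseline. Vehicle tumour 424 alone lay below the treated tumours; the next vehicle value was 805.3. Against baseline the groups did not overlap, and Kat5 fell 1.91-fold (log2 fold change -0.93, SE 0.23, adjusted p = 0.00305, limma). Against vehicle it fell 1.46-fold (-0.55, SE 0.21, adjusted p = 0.0339, limma), a call lost when any of the 11 tumours other than vehicle 424, entinostat 411 or entinostat 418 was left out (adjusted p up to 0.0742), with cyclic loess scaling (0.0593), with no filter (0.0512) or with 2 groups in the fit (0.0565). Without vehicle tumour 424 the log2 fold change was -0.74 (adjusted p = 0.000284, limma).

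Kat6a, the acetyltransferase MOZ, read 858.4, 1072, 1147, 1259 and 1604 in entinostat tumours and 1155, median 2100, 2249 at the highest in vehicle tumours. Vehicle tumours 410 (1155) and 424 (1333) fell within the treated range, and the other 4 were above it. Kat6a fell 1.54-fold (log2 fold change -0.62, SE 0.20, adjusted p = 0.0161, limma). Against baseline (1490, 1556, 1667 and 1904) its log2 fold change was -0.50 (adjusted p = 0.0703, limma), and it passed without entinostat 423 (0.0337), with median centring (0.0447) or with 2 groups in the fit (0.0355). Tumour 423 held the highest treated value, and Kat6a stayed uncalled in 8 of 9 fits with a tumour left out (adjusted p up to 0.168, limma). Its paralog Kat6b, or MORF, read 124.1 to 319.2, median 226.5, under entinostat and 135.1 to 465.8, median 366.5, under vehicle (-0.47, adjusted p = 0.224, limma).

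Ep300 varied most within groups, with a pooled within-group SD of 0.60 on the log2 scale in B6 beside 0.22 for Kat2a. It read 735.0, 885.4, 1112, 1635 and 1656 in entinostat tumours, and 624.3, median 1813, 2297 at the highest in vehicle tumours, where tumour 410 was far below the next value of 1592. The log2 fold change was -0.48 (95% interval -1.20 to 0.23, adjusted p = 0.23, limma) with all tumours and -0.76 (adjusted p = 0.0235, limma) without vehicle tumour 410. That tumour held the lowest vehicle value, so leaving it out widens the difference. Ep300 stayed uncalled in 10 of 11 fits with a tumour left out (adjusted p up to 0.447, limma). Crebbp, its paralog, read 648.3, 671.8, 823.7, 848.9 and 889.6 under entinostat and 645.2 to 1259, median 851.7, under vehicle (-0.19, interval -0.54 to 0.16).

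Neither BET reader passed the test against vehicle. Brd2 read 3864, 4229, 4893, 5064 and 5209 under entinostat and 3124 to 5896, median 5594, under vehicle, with tumour 424 lowest (-0.14, interval -0.48 to 0.21; -0.28 without tumour 424, adjusted p = 0.0413, limma). Brd3 read 861.7, 896.3, 997.9, 1072 and 1097 under entinostat and 1001 to 1200, median 1132, under vehicle (-0.19, interval -0.43 to 0.05). Without tumour 424, Kat6b was also called (-0.71, adjusted p = 0.0295, limma). Brd2 and Kat6b each had their lowest vehicle value in that tumour and stayed uncalled in 10 of 11 fits with a tumour left out. Tumour 424 had the highest epithelial (605700) and dividing-cell (20870) marker sums of the vehicle group.

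Entinostat was also compared with baseline in B6 mice, where 54.4% of genes were called and 25.3% were called lower. Again 3 of 9 fell: Kat2a, Kat5 and Brd3. Brd3 read 1110, 1181, 1263 and 1343 at baseline, all above the treated values, and fell 1.25-fold (log2 fold change -0.32, SE 0.12, adjusted p = 0.0411, limma), a call lost on leaving out baseline 415, 416 or 419 or entinostat 413, 421 or 423 (adjusted p up to 0.118), with no filter (0.0832), with cyclic loess scaling (0.141), with 2 groups in the fit (0.0632) or with plain empirical Bayes (0.061). These B6 comparisons share the entinostat tumours. Between vehicle and baseline in B6, 0 of 17053 genes were called (0%; 749, or 4.39%, at an unadjusted p under 0.05, limma). The 9 genes ran from -0.39 for Kat5 to 0.31 for Ep300, and none passed the unadjusted threshold.

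**Figure D2:**
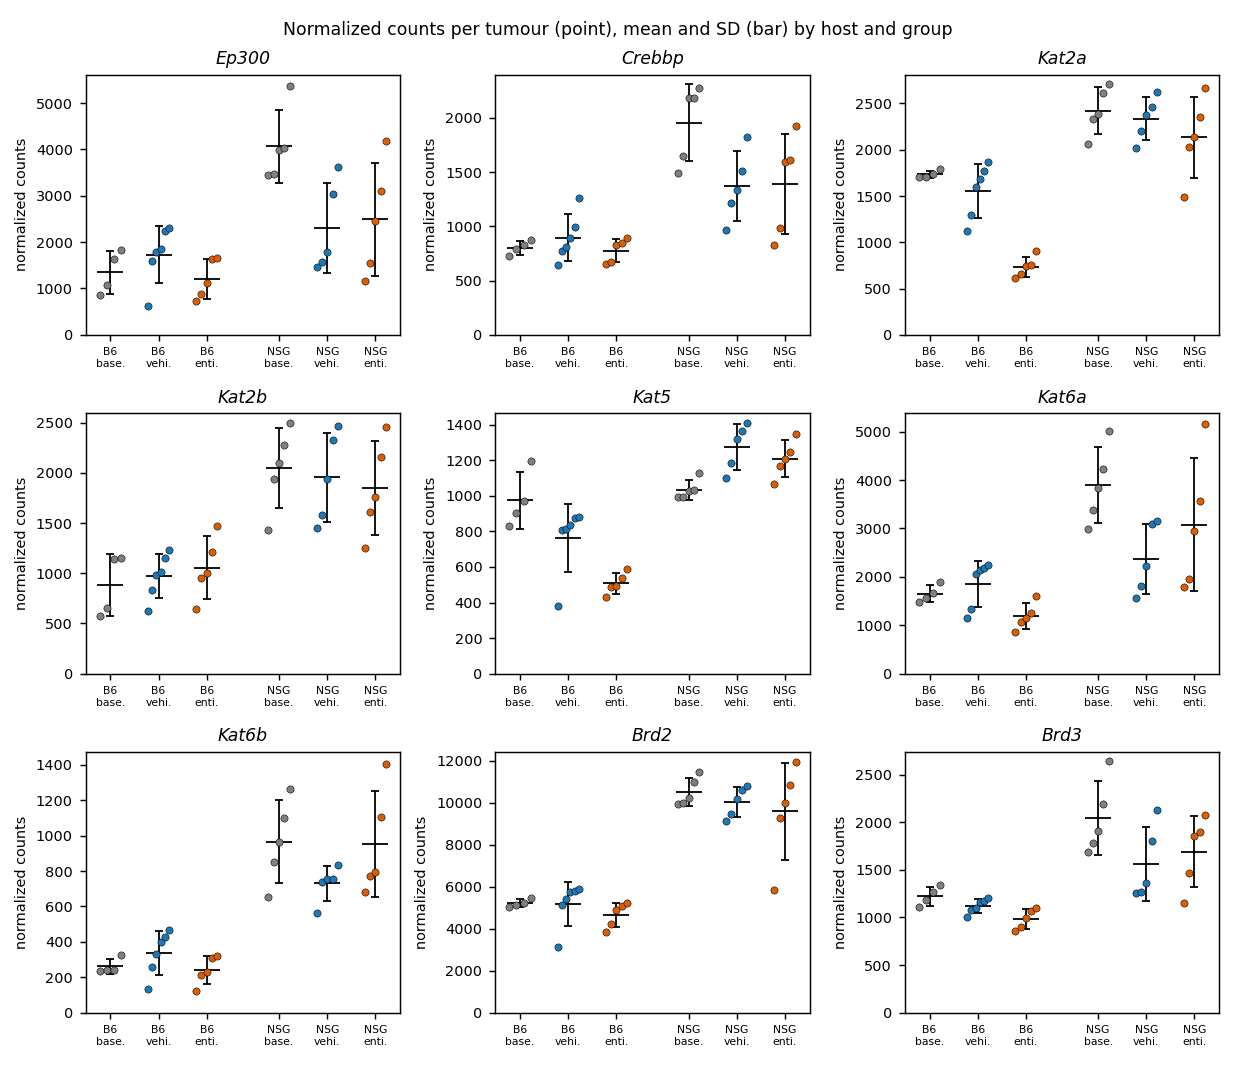
Normalized counts of the 9 genes (vertical axes, from 0) by host and group; points are tumours, bars the mean and SD. Kat2a and Kat5 are lowest in B6 entinostat tumours apart from the Kat5 value of 381.0 in 1 vehicle tumour; B6 and NSG values come from tables normalized separately, so heights are not compared between hosts.

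In NSG mice no gene was called between entinostat and vehicle (0 of 17752, 0%; 1287, or 7.25%, at an unadjusted p under 0.05, limma), and none of the 9 passed even the unadjusted threshold. Kat2a read 1485, 2026, 2139, 2356 and 2671 under entinostat and 2021, 2201, 2371, 2461 and 2623 under vehicle; only NSG_Entinostat_319 was below the vehicle range. Its log2 fold change was -0.15 (95% interval -0.46 to 0.16), and -0.03 without that tumour. Kat5 read 1067, 1170, 1208, 1249 and 1350 against 1101, 1183, 1318, 1365 and 1412 (-0.08, interval -0.30 to 0.15). Kat6a read 1785, 1950, 2954, 3559 and 5163 against 1561, 1812, 2231, 3085 and 3159 (0.32, interval -0.26 to 0.91), and Kat6b was 0.34 higher on the log2 scale (interval -0.10 to 0.79). The other 5 lay between -0.10 for Brd2 and 0.11 for Brd3, with intervals that reach 0.75 for Ep300.

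**Figure D3:**
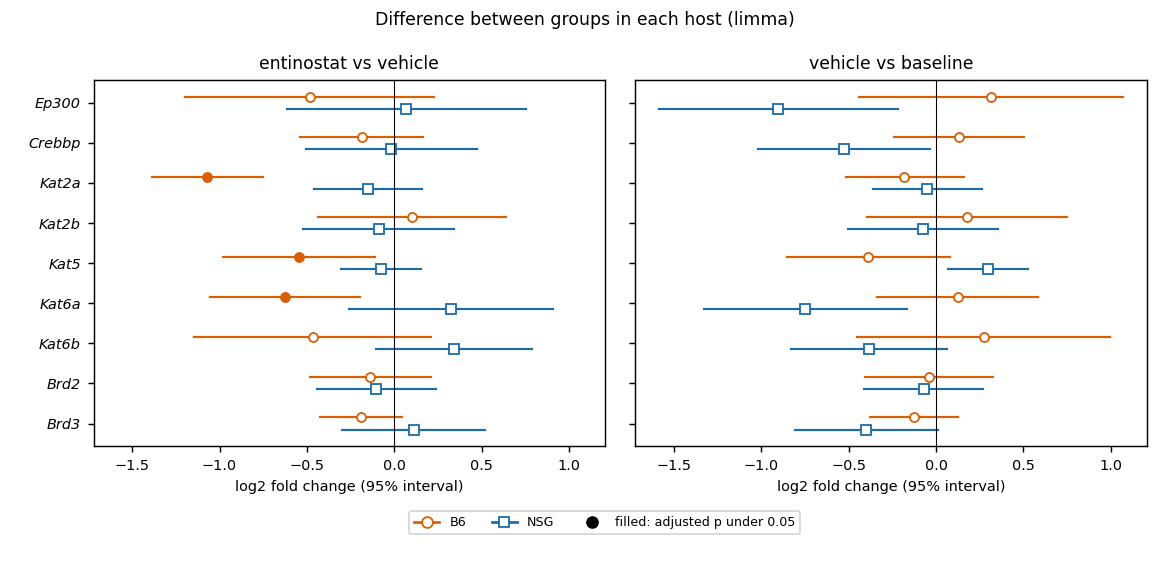
Log2 fold changes (points) with 95% intervals (lines) of the 9 genes for entinostat against vehicle and vehicle against baseline, B6 circles and NSG squares; filled symbols have an adjusted p under 0.05 (limma). The 3 filled symbols are Kat2a, Kat5 and Kat6a in B6.

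The host difference itself was tested as the B6 response minus the NSG response, in which the separate scaling of each table drops out. Of 16335 genes, 43.5% were called and 19.7% were called lower in B6. Kat2a (B6 -1.07, NSG -0.15) differed by -0.92 (SE 0.20, adjusted p = 0.000703, limma), and Kat6a (B6 -0.62, NSG 0.32) by -0.95 (SE 0.35, adjusted p = 0.0303, limma). The call for Kat6a was lost on leaving out B6 vehicle 414, B6 entinostat 421, NSG_Non-Treatment_323, NSG_Non-Treatment_326, NSG_Entinostat_312 or NSG_Entinostat_327 (adjusted p up to 0.0742, limma). For Kat5 the difference was -0.47 (adjusted p = 0.0993, limma) and for Kat6b -0.81 (adjusted p = 0.0942, limma). Both passed without B6 vehicle 424 (0.0011 and 0.0124, limma), the vehicle tumour with the lowest value of each, so leaving it out widens the difference. Each stayed uncalled in 20 of 21 fits with a tumour left out (adjusted p up to 0.163 for Kat5 and 0.206 for Kat6b, limma). Under other scalings Kat5 passed with quantile (0.0476) and median (0.0474) and Kat6b with quantile (0.034) and cyclic loess (0.0492). The epithelial marker sums given above fell in B6 and overlapped in NSG, and their part in the host difference was not tested.

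Between vehicle and baseline in NSG mice, 13.0% of genes were called (33.0% at an unadjusted p under 0.05) and 0 of the 9 (4 unadjusted, limma). The 2312 genes called became 0 without NSG_Baseline_303, 43 without NSG_Baseline_305, 44 without NSG_Non-Treatment_326, 808 without NSG_Baseline_320 and 1492 without NSG_Non-Treatment_311. Without NSG_Non-Treatment_323, 153 genes rose and 155 fell. Ep300 read 1459, 1577, 1787, 3037 and 3617 in vehicle and 3438, 3476, 3997, 4036 and 5378 in baseline tumours, with only NSG_Non-Treatment_302 above the lowest baseline value (log2 fold change -0.90, SE 0.32, adjusted p = 0.0689, limma). Crebbp read 962.1, 1213, 1337, 1512 and 1821 against 1489, 1653, 2183, 2187 and 2273 (-0.53, adjusted p = 0.126, limma). Kat6a was at -0.75 (adjusted p = 0.0748, limma). Kat5 was the exception in sign, at 0.30 (adjusted p = 0.0707, limma). Ep300 passed without NSG_Non-Treatment_302 (adjusted p = 0.0326, limma) or NSG_Non-Treatment_308 (0.0475), and Kat5 (0.0404) and Kat6a (0.0481) passed without the latter. Those tumours held the highest vehicle values of Ep300, 3617 and 3037. With a tumour left out, Ep300 stayed uncalled in 8 of 10 fits, and Kat5 and Kat6a in 9 of 10 each. Their adjusted p reached 0.168, 0.152 and 0.182 (limma). With 2 groups in the fit Ep300 (0.0324) and Kat6a (0.0354) passed, and Ep300 also passed without the libraries under 20000000 reads (0.0382). Cell markers moved in the same comparison. Fibroblast marker sums were 49060 to 110200 in vehicle and 144400 to 334800 in baseline tumours (4 of 7 markers fell), and endothelial sums 1406 to 2598 and 2806 to 3620 (4 of 5 fell). Macrophage sums were 17600 to 50240 and 35770 to 57310 (3 of 8 fell), and neutrophil sums 22170 to 84450 and 12800 to 25170 (2 of 4 rose). The part of these cells in the values was not tested.

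For entinostat against baseline in NSG, 0.406% of genes were called (25.4% unadjusted), and 0 of the 9; Ep300 (-0.83, adjusted p = 0.137, limma) and Crebbp (-0.54, adjusted p = 0.163, limma) passed unadjusted. The NSG comparisons share their baseline and vehicle tumours. For the host difference in vehicle against baseline no gene was called (0%; 2721, or 16.7%, unadjusted, limma). Ep300 (1.22), Kat6a (0.87), Crebbp (0.66) and Kat5 (-0.69) passed unadjusted, with adjusted p of 0.232, 0.235, 0.264 and 0.164 (limma).

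Within groups the 9 genes did not vary alike. After each group's mean was subtracted, Ep300 and Kat6a moved together most closely over 30 libraries (Pearson r 0.88; 0.84 in B6, 0.94 in NSG), while Kat2a and Kat2b gave -0.30 (-0.48 in B6, -0.06 in NSG). Brd2, Kat6b and Kat5 moved together in B6 (Brd2 with Kat6b 0.90, Brd2 with Kat5 0.87) and not in NSG (0.18 and -0.19); tumour 424 deviated furthest below its group mean for all 3. Each tumour was also set against the mean of the other tumours of its group. The median deviation of the 9 genes on that measure was lowest in NSG_Entinostat_319 (-0.65, about 11000000 reads) and highest in NSG_Entinostat_327 (0.56, about 52100000 reads). B6 vehicle 410 (about 18100000 reads) was at -0.32, and B6 entinostat 418 (about 13000000 reads) at 0.005. The part of depth in these deviations was not tested. These correlations are descriptions, over libraries that share their depth and makeup across all genes. Among 11883 genes ranked the same way, the closest to Ep300 were Htt (huntingtin, r 0.96) and Prr14l (0.94). Those closest to Kat6a were Vps13b and Sbno1 (both 0.92), and to Crebbp Rtf1 (0.90), a Paf1 complex subunit. For Kat5 they were Thtpa (0.91, with 0.95 in B6 and 0.48 in NSG) and Dedd (0.89, with 0.93 and 0.49). Kat6b had Ndst1 (0.91, with 0.96 in B6 and 0.78 in NSG) and Btbd7 (0.91, with 0.99 and 0.69). Closest to Brd2 were Mlst8 (0.89) and Zfp142 (0.88). Brd3 had Ptpn14 (0.85, with 0.49 in B6 and 0.95 in NSG) and Zbtb40 (0.85, with 0.44 and 0.91). Kat2b had Tlr3 (0.81) and Ralgps1 (0.81, with 0.88 in B6 and 0.67 in NSG). Kat2a had Prpsap1 (0.79) and Elac2 (0.76, with 0.60 in B6 and 0.90 in NSG).

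**Figure D4:**
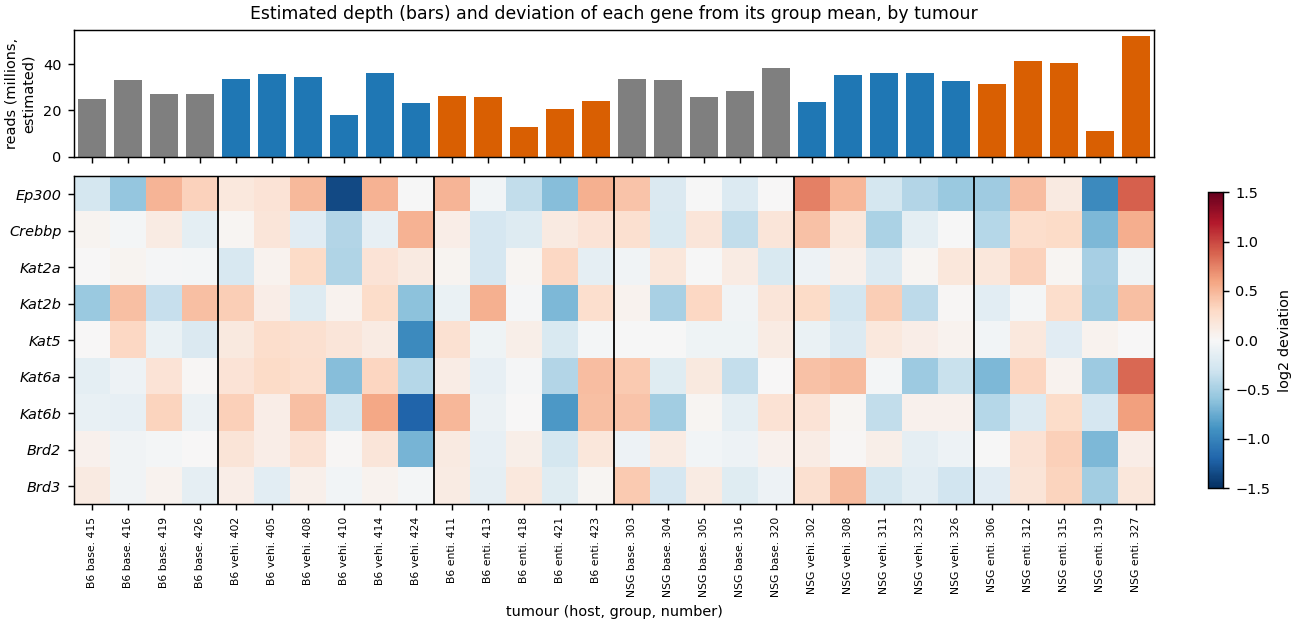
Estimated reads per library (bars, upper panel) and the log2 deviation of each gene from its group mean (colour, red above and blue below) in all 30 tumours. Ep300 is bluest in B6 vehicle 410, Kat5, Kat6b and Brd2 in B6 vehicle 424, and most genes are blue in NSG_Entinostat_319.

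Partner genes of the same pathways were read from 9 lists with 115 genes, all tested. In B6 entinostat against vehicle, 14 rose and 37 fell (44.3% called, beside 56.0% of all genes), with a median log2 fold change of -0.32. Of all 17053 genes 5093 rose and 4460, or 26.2%, fell, against which the counts of each list below stand; no list was tested for enrichment. In NSG none was called for entinostat against vehicle, where the smallest p of each list belonged to Naa60 (-0.26), Tada3 (-0.34), Mbtd1 (0.38), Jade1 (0.29), Pbrm1 (0.41), Ell2 (-0.28), Crem (-0.31), Crat (-0.42) and Hdac3 (-0.26), with adjusted p of 0.682 or more (limma); 5 rose and 8 fell for vehicle against baseline (11.3%).

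Of 20 other subunits of SAGA and ATAC, the complexes that hold GCN5 or PCAF, 7 fell and none rose in B6, with a median log2 fold change of -0.33 beside -0.01 for all genes. Taf5l (SAGA core, -1.39, adjusted p = 3.32e-07, limma), Tada2b (-1.10) and Tada2a (-0.88), which hold the acetyltransferase in SAGA and ATAC, and Mbip (-0.92) had the smallest p. Of 16 TIP60 complex subunits 6 fell and 1 rose: the AAA+ ATPases Ruvbl2 (-1.31) and Ruvbl1 (-0.99) and the actin-related Actl6a (-1.04) fell, and Morf4l1 (0.55) rose. Of 8 subunits of the MOZ, MORF and HBO1 complexes 2 fell (Jade3 -1.80, Jade1 -0.52) and 2 rose (Jade2 1.04, Ing4 0.58). Of 13 other acetyltransferases 4 fell, including Clock (-1.76), Taf1 (-0.89) and Hat1 (-0.88), and Ncoa3 rose (1.06).

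Of 22 other bromodomain and YEATS readers 9 fell and 1 rose; Brwd3 (-1.87), Trim24 (-1.40), Atad2 (-1.26) and Smarca4 (-0.77), the BRG1 ATPase, had the smallest p. Of 12 P-TEFb and super elongation complex genes 4 fell and 3 rose: Larp7 (-0.92) and Ell3 (-2.05) fell, while Cdk9 (0.73), the P-TEFb kinase, and its inhibitor Hexim1 (0.69) rose. Of 11 factors that bind p300 and CBP 4 rose and 1 fell: Epas1 (HIF-2 alpha, 1.497), Crem (1.25) and Crtc3 (0.58) rose. Cited1 fell on the log2 scale (-3.67, SE 1.22), while its means were 209.0 ± 457.7 (SD, n = 5) under entinostat and 230.0 ± 156.3 (SD, n = 6) under vehicle. Of 9 genes that supply acetyl-CoA 3 fell, including Acly (-0.89), the ATP citrate lyase, and 2 rose, Crat (1.74) and Acss1 (1.60). Of the 4 class I deacetylases Hdac1 fell (-0.60, adjusted p = 0.00416, limma), and Hdac2, Hdac3 and Hdac8 were at -0.65, -0.46 and -0.32 with adjusted p of 0.0756, 0.114 and 0.197 (limma). In NSG vehicle against baseline, Pbrm1 (-0.74), Phip (-1.22), Baz1b (-0.92) and Brwd3 (-1.03) of the readers fell, and Mrgbp (0.76) and Morf4l1 (0.46) of the TIP60 list and Hdac3 (0.69) rose.

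**Figure D5:**
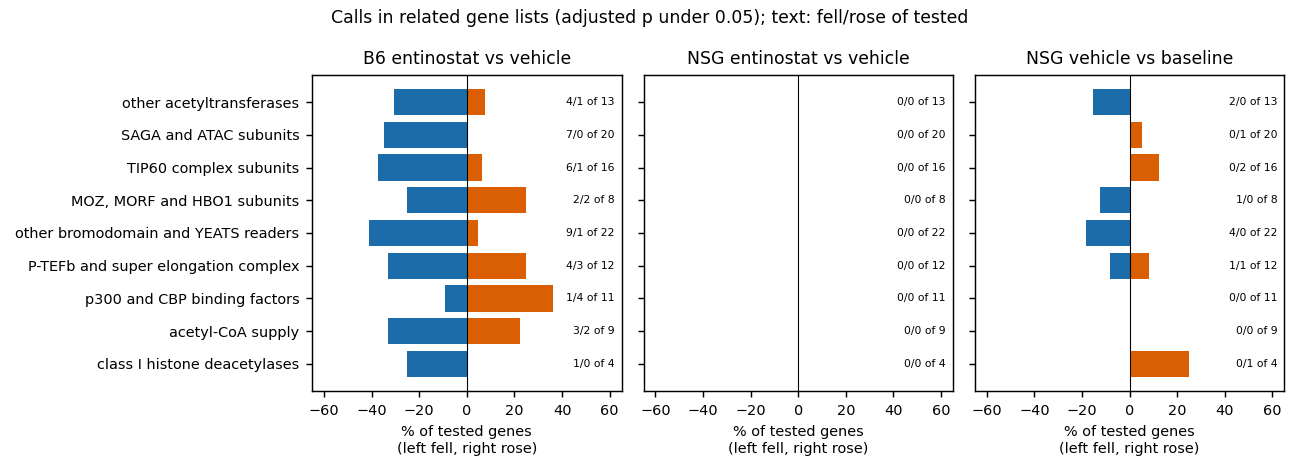
Percent of tested genes in each of 9 related lists that fell (left of 0, blue) or rose (right of 0, orange) at an adjusted p under 0.05 (limma), in 3 comparisons, with the counts printed as fell/rose of tested. In B6, where 5093 of all 17053 genes rose and 26.2% fell, 7 of 20 SAGA and ATAC genes fell and none rose. Of 16 TIP60 complex subunits 6 fell and 1 rose, and of 22 other bromodomain and YEATS readers 9 fell and 1 rose. Of 11 factors that bind p300 and CBP 1 fell and 4 rose. The middle panel, NSG entinostat against vehicle, is empty.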

How the data were processed

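Bulk RNA-seq libraries of 30 tumours were used; the receptor and exome libraries were not used here. Values are signal, gene counts that the authors normalized with DESeq2 and deposited as 1 table per host; STAR, DESeq2 and build mm10 are named in the submitters' processing notes, with no versions. Per the labels' protocols, libraries were stranded mRNA. Values were put on the log2 scale with a pseudocount of 1, and limma 3.58.1 in R 4.3.3 (trend, robust empirical Bayes) was run, 3 groups of a host in 1 fit, over genes with at least 10 in 4 (B6) or 5 (NSG) libraries. Calls are a Benjamini-Hochberg adjusted p under 0.05. The host difference used 1 fit over both tables. Paralog ratios used exact two-sided permutation tests. The code was tested on simulated data, where a first pass criterion failed in B6 and was replaced after that failure was seen. Named genes are the 9 members, the 2 to 4 genes of each related list with the smallest p, and the 2 genes most alike to each member by correlation, of which 1 is not reported here. Members and lists were chosen with earlier results of these data known. Alternatives covered pseudocount, filter, scaling, fit and libraries. Promoters came from RefSeq (GRCm38.p6); figures used matplotlib 3.10.9 (Python 3.11.15).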

Additional observations from a re-analysis of the deposited data

Results flagged for a closer look

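Among 54 sets of tumours (9 genes in 6 groups) tested for a value far from the rest, 3 had one; chance gives about 1 in 20. In B6 vehicle tumour 424, Kat5 was at 381.0 normalized counts, and the gap to the next tumour was 0.847 of the group's range. In the same tumour Brd2 was at 3124, with a gap of 0.727. In B6 baseline tumour 419, Kat6b was at 326.7, above the other 3 tumours, with a gap of 0.936.

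The response to entinostat differed between hosts for 2 of the 9 genes, by the test of the difference itself (limma, B6 minus NSG, adjusted over 16335 genes): Kat2a by -0.921 (adjusted p = 0.000703) and Kat6a by -0.948 (adjusted p = 0.0303) on the log2 scale. Of all genes 43.5% were called in this test and 19.7% were called lower, so the share of the 9 genes called lower was close to the general one. The call of Kat6a was lost in 6 of 21 fits with a tumour left out (adjusted p up to 0.0742, limma).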

How the results depend on the processing

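No paired analysis was possible because tumour numbers are not shared between the RNA groups compared. Kat2a was called in B6 against vehicle and against baseline, and in the host difference, under every alternative that was run, including each tumour left out (adjusted p up to 0.00208, limma). Kat6a in B6 against vehicle was called in all 11 fits with a tumour left out (adjusted p up to 0.0462).

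The percent of genes called moved in NSG and in B6 vehicle against baseline. NSG entinostat against baseline (0.406%) gave 0.907% with pseudocount 5, 1.78% with quantile scaling, 0.715% with median centring, 3.33% with 2 groups in the fit and 0.248% with plain empirical Bayes, and 0% to 5.28% with a tumour left out, highest without NSG_Entinostat_327. NSG vehicle against baseline (13.0%) gave 4.75% with no filter and 0% to 18.5% with a tumour left out. B6 vehicle against baseline (0%) gave 0.00586% with quantile scaling and 0% to 0.0117% with a tumour left out, NSG entinostat against vehicle (0%) 0% to 0.00563%, and the host difference in vehicle against baseline (0%) 0% to 2.28%. Leaving out the 3 libraries under 20000000 reads, chosen after seeing the data, gave 0.00563%, 20.9% and 0.00586% for NSG entinostat against baseline, NSG vehicle against baseline and B6 vehicle against baseline, and removed the call of Kat5 in B6 against vehicle (-0.53, adjusted p = 0.0799) and added that of Ep300 in NSG vehicle against baseline (-0.90, adjusted p = 0.0382). It replaced an earlier choice that left out B6 vehicle 410, B6 vehicle 424 and NSG_Entinostat_319 and had been made from the levels of these 9 genes; its values are not given. The causes were not tested.

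Signs turned for uncalled values near 0. In NSG entinostat against vehicle, Crebbp was 0 with quantile scaling, 0.004 with cyclic loess and 0.001 with median centring, and without the shallow libraries Crebbp, Kat2b and Brd2 were 0.152, 0.041 and 0.065. With cyclic loess, Crebbp in B6 entinostat against baseline was 0.019 and the host difference of Brd2 in entinostat against vehicle 0.014. With a tumour left out, B6 Kat2b ran from -0.033 to 0.268 against vehicle, B6 Crebbp from -0.108 to 0.006 and Kat6b from -0.319 to 0.02 against baseline, and the host difference of Brd2 from -0.201 to 0.056. In NSG against vehicle, Ep300 ran from -0.154 to 0.308, Crebbp from -0.151 to 0.152, Kat2b from -0.201 to 0.041 and Brd2 from -0.192 to 0.065, and in vehicle against baseline Kat2a from -0.107 to 0 and Kat2b from -0.198 to 0.024. The log2 ratio of Brd2 to Brd3 in B6 ran from -0.081 to 0.106, and in NSG Ep300 to Crebbp from -0.053 to 0.167, Kat2a to Kat2b from -0.204 to 0.063 and Kat6a to Kat6b from -0.169 to 0.092. Quantile scaling moved the median of all genes in B6 entinostat against vehicle from -0.012 to -0.162; Kat2a, Kat5 and Kat6a stayed called lower.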
